A study of Mus musculus with 4 samples.

Results

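The identity of an epithelial or a mesenchymal cell was read here from 10 genes of the 35905 genes matched in the deposited tables. They are a listed set of 4 epithelial markers (Cdh1, Epcam, Krt8 and Krt18) and 6 mesenchymal markers and regulators (Cdh2, Vim, Zeb1, Zeb2, Snai1 and Twist1). The rule that lists them uses no measured value, but they were chosen with earlier results of these data known. RNA came from LLC (Lewis lung carcinoma), a line derived from a mouse lung tumour, grown under the skin of the flank in C57BL/6 mice. After 4 weeks the cancer cells were sorted by their TdTomato fluorescence and the lack of CD45, the common leukocyte surface protein. In the PAD4-DN group (2 libraries) the hosts were Padi4fl/fl with Mrp8Cre, a driver used to delete floxed genes in neutrophils. In the WT group (2 libraries) the hosts carried the same Padi4fl/fl alleles without Cre. The deletion thus lay in host cells and not in the sorted line, and both groups rest on 1 cancer cell line. Whether the replicates were separate mice is not stated, and each p-value reflects no more than library-to-library spread, which may be technical. Padi4 was not a target in the sorted cells, so its transcript there could not check the genotype labels.

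Epithelial cells are held together by E-cadherin and rest on a keratin filament network, whereas mesenchymal cells use N-cadherin and vimentin filaments and migrate singly. In the epithelial-mesenchymal transition the repressors Snai1, Zeb1 and Zeb2 bind the DNA letters CACCTG, a form of the E-box, near epithelial genes such as Cdh1, and Twist1, a basic helix-loop-helix factor, acts in the same program. Carcinoma cells can also stop between the states and keep some features of each.

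Promoter sequences were searched because CACCTG is the letter string that the Snai1 and Zeb proteins read. The sequences given are those of the 4 members with a match and that of Vim, the most abundant member, without one. The windows of Twist1 and Zeb2, also without a match, are not printed. The table of RefSeq promoters used here, on build GRCm38.p6, covered 7 of the 10 members, and the promoters of Cdh1, Cdh2 and Zeb1 were not analysed here. The 250 bases before each start were searched for CACCTG on both strands, that is for CACCTG or CAGGTG on the gene strand, and a match is in capitals. Each line runs 5′ to 3′ on the gene strand.
Epcam, chr17:87635729-87635978, plus strand: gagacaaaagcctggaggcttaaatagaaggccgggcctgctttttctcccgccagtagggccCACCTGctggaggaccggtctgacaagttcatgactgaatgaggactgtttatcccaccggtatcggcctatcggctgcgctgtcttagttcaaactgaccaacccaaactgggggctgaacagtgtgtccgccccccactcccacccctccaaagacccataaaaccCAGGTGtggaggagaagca
Krt8, chr15:102004343-102004592, minus strand: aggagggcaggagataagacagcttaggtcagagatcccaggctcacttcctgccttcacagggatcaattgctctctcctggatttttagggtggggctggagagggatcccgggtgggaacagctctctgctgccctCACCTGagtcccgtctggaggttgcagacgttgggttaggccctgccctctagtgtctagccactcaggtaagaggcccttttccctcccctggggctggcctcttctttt
Krt18, chr15:102027966-102028215, plus strand: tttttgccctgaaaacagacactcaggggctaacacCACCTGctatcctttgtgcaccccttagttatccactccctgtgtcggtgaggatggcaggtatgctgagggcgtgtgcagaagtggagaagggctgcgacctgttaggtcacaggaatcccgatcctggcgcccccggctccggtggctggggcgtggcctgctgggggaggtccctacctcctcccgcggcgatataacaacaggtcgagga
Snai1, chr2:167537945-167538194, plus strand: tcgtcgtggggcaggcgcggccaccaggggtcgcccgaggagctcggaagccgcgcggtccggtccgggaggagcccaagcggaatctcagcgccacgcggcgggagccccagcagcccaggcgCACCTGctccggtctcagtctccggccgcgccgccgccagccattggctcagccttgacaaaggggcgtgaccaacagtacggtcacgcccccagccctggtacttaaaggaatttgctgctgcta
Vim, chr2:13574061-13574310, plus strand: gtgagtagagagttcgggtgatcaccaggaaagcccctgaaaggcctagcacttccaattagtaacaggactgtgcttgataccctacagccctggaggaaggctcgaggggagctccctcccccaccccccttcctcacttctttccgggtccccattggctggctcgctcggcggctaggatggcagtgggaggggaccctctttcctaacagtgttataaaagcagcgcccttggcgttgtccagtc

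The letters were present before the start of 4 members, Epcam (2 matches), Krt8, Krt18 and Snai1 (1 match each). They were in none of the windows of Vim, Twist1 or Zeb2, the last with 4 annotated starts. Of 32851 mouse promoter windows of the same length, 5657 (17.2%) held the letters. The epithelial windows with a match belong to genes at opposite ends of the range measured below, Epcam near 0 and both keratins high.

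In every library the sorted cells carried high vimentin and all 4 mesenchymal transcription factors, next to no E-cadherin or EpCAM transcript, and abundant keratins 8 and 18. Levels are given in TPM, the share of a transcript among 1000000 after the authors' scaling for length. Vim, the mesenchymal intermediate filament, was at 3326 and 3155 TPM in PAD4-DN and at 3598 and 3199 TPM in WT. By mean TPM it ranked 31 among the 13019 protein-coding genes abundant enough to test. Its ranges overlapped between the host genotypes.

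Cdh1, which encodes E-cadherin, had 6.83 and 1 estimated counts in PAD4-DN and 3 and 3 in WT. Summed over libraries this was 14 counts after rounding (exact 95% Poisson interval 7.65 to 23.5, counting error only), or 0.151 CPM, that is counts per 1000000 counts of a library. Epcam, a surface adhesion molecule of epithelia, had 2 and 4 counts in PAD4-DN and 2 and 3 in WT, 11 in all (5.49 to 19.7). Both genes were at the edge of detection in each of the 4 libraries, and neither was abundant enough to compare between hosts.

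Krt8 and Krt18 encode the type II and type I keratins that pair into the filaments of simple epithelia. Krt8 was at 178 and 131 TPM in PAD4-DN and at 148 and 138 TPM in WT. Krt18 was at 208 and 184 TPM in PAD4-DN and at 227 and 214 TPM in WT. Among testable protein-coding genes Krt8 lay at percentile 94.7 and Krt18 at percentile 96.5, while vimentin exceeded Krt8 by 18.7-fold and 24.0-fold in PAD4-DN and by 24.3-fold and 23.1-fold in WT.

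Cdh2, which encodes N-cadherin, was at 9.50 and 12.8 TPM in PAD4-DN and at 11.3 and 12.7 TPM in WT, overlapping between hosts. Its level exceeded that of Cdh1 by 84.8-fold (95% counting interval 40.9 to 212) in PAD4-DN replicate 1 and by 650-fold (116 to 25696) in PAD4-DN replicate 2. In WT the ratio was 195 (66.4 to 946) in replicate 1 and 232 (79.0 to 1125) in replicate 2. N-cadherin was thus the more abundant of these classical cadherins in every library, although it was the lowest of the 6 mesenchymal members and near the middle of all testable protein-coding genes, at percentile 45.1.

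Of the repressors, Zeb1 was at 52.7 and 49.2 TPM in PAD4-DN and at 50.0 and 37.1 TPM in WT. Its homologue Zeb2 was at 49.5 and 47.8 TPM in PAD4-DN and at 49.8 and 37.1 TPM in WT. WT replicate 2 was the lowest library for both genes, and their ratio stayed between 1.00 and 1.07, when all annotated transcripts were summed. With protein-coding transcripts only, Zeb1 was at 27.4 and 30.4 TPM in PAD4-DN and at 24.5 and 24.7 TPM in WT, and its ratio to Zeb2 was 0.711 and 0.747 in PAD4-DN and 0.614 and 0.823 in WT. Neither the lowest library of Zeb1 nor the near-equal levels held in that setting.

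Twist1 was at 41.3 and 44.8 TPM in PAD4-DN and at 35.4 and 41.0 TPM in WT. Snai1, the zinc-finger repressor whose own promoter holds the letters shown above, was at 26.5 and 14.4 TPM in PAD4-DN and at 16.9 and 15.2 TPM in WT. For Snai1 the PAD4-DN libraries lay at the 2 ends, replicate 1 highest and replicate 2 lowest, with WT between them.

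**Figure D1:**
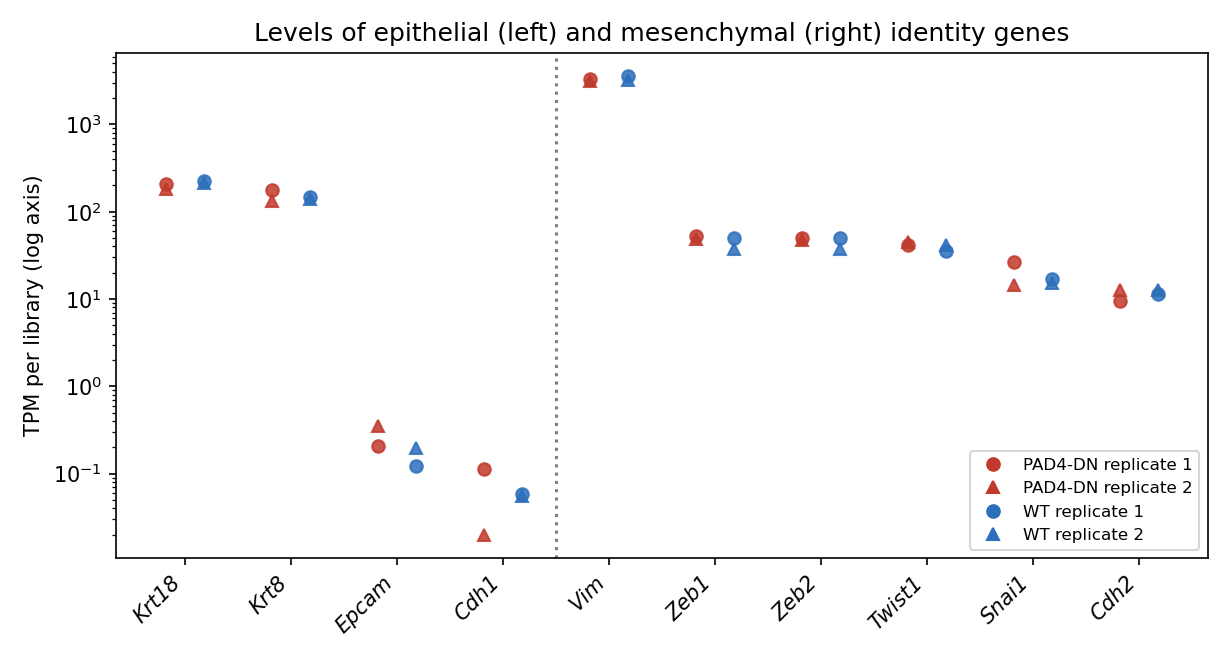
TPM of the 10 identity genes on a log axis, with PAD4-DN libraries (red) left of WT libraries (blue); circles are replicate 1 and triangles replicate 2. Vim is at 3155 TPM or more, both keratins at 131 TPM or more, and Epcam and Cdh1 at 0.351 TPM or less in all 4 libraries.

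Ordered by mean TPM over the 4 libraries, the members ran Vim (3319 ± 200, SD), Krt18 (208 ± 18.0), Krt8 (149 ± 20.5), Zeb1 (47.3 ± 6.92), Zeb2 (46.1 ± 6.03), Twist1 (40.6 ± 3.90), Snai1 (18.3 ± 5.61), Cdh2 (11.6 ± 1.54), Epcam (0.220 ± 0.0955) and Cdh1 (0.0611 ± 0.0381). Neighbours in this order had separate ranges over the libraries, except Zeb1 with Zeb2 and Zeb2 with Twist1. The step from Cdh2 to Epcam was the widest, at 52.7-fold.

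The mean log2(TPM + 1) of the 6 mesenchymal members minus that of the 4 epithelial members was 2.21 and 2.26 in PAD4-DN and 2.19 and 2.09 in WT. Over the 4 libraries it was 2.19 ± 0.07 (SD), so the libraries lay close together, with the mesenchymal mean higher in each. The series held no epithelial or mesenchymal reference sample, so this difference has no fixed midpoint between the states. The epithelial sum of 387 and 316 TPM in PAD4-DN and 375 and 353 TPM in WT came almost wholly from the keratins. The mesenchymal sum was 3505 and 3324 TPM in PAD4-DN and 3762 and 3343 TPM in WT. Without Vim it was 180 and 169 TPM in PAD4-DN and 163 and 143 TPM in WT, below the keratins in each library.

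Reads were divided among annotated transcripts by an estimate. Krt8, Krt18, Snai1 and Twist1 have 1 annotated transcript each. In Vim the transcript Vim-201 held 93.4% and 92.3% of the gene's counts in PAD4-DN and 91.7% and 92.5% in WT, but short transcripts with a retained intron weigh more per length. Protein-coding transcripts gave 71.4% and 67.1% of Vim TPM in PAD4-DN and 64.9% and 67.8% in WT. For Zeb1 the same share was 52.0% and 61.8% in PAD4-DN and 49.0% and 66.6% in WT. Counting protein-coding transcripts only, Vim averaged 2249 TPM, Zeb2 37.3 TPM and Zeb1 26.8 TPM, so that Twist1 and Zeb2 stood before Zeb1 in the order.

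Genes of the same kinds outside the 10 members were read from lists, which were written with earlier results of these data known. The epithelial lists (junction and surface genes, regulators, lung epithelial identity and other keratins) held 74 genes, of which 4 reached a mean of 10 TPM and 17 had no count in any library. The mesenchymal lists (transcription factors and effectors) held 37 genes, of which 21 reached 10 TPM and 2 had no count. The median of the mean levels was 0.0818 TPM over the epithelial lists and 22.6 TPM over the mesenchymal lists.

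Among regulators that maintain epithelia, the splicing factor Esrp1 and the transcription factors Ovol2 and Grhl3 had 0 counts in all 4 libraries. At these depths a gene without counts may still have had 3, which is 0.150 and 0.124 CPM in PAD4-DN and 0.128 and 0.118 CPM in WT, for counting error only. Klf4 and Klf5, zinc-finger factors not limited to epithelia, were the most abundant of these 14 genes at 17.4 ± 3.55 and 6.59 ± 1.38 TPM (SD over 4 libraries), followed by the ETS factor Elf3 at 0.358 ± 0.111 TPM.

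Of the 31 junction and surface genes, the claudins Cldn3 and Cldn4, the polarity gene Crb3 and the protease Prss8 had 0 counts in all libraries. The scaffold gene Tjp1, also found at contacts of non-epithelial cells, was at 62.1 and 78.0 TPM in PAD4-DN and at 67.7 and 75.3 TPM in WT. The desmosomal plaque gene Pkp2 followed at 12.2 ± 1.19 TPM and the tight junction gene Ocln at 8.73 ± 1.60 TPM (SD over 4 libraries). Genes of the same kind differed widely, since the scaffold gene Tjp3 averaged 0.0848 TPM and the desmosomal plaque gene Dsp 0.0058 TPM. Every listed claudin and desmosomal cadherin was below a mean of 1 TPM.

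No other listed keratin approached the keratin 8 and 18 pair. Of 15 such genes 6 had no count, and the highest were Krt80 at 2.39 ± 1.09, Krt10 at 1.81 ± 0.854 and Krt19 at 1.19 ± 0.717 TPM (SD over 4 libraries). Most lung identity genes were also near 0. The surfactant genes Sftpa1 and Sftpc and the club cell genes Scgb1a1 and Scgb3a2 had 0 counts, and the lung lineage factor Nkx2-1 had at most 2.68 estimated counts in a library. Hopx, a homeodomain-only protein gene expressed in alveolar type I cells and in other tissues, was the exception at 28.2 ± 1.87 TPM. Foxa2 was at 1.22 ± 0.555, Napsa at 0.755 ± 0.515 and Ager at 0.546 ± 0.300 TPM.

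On the mesenchymal side, Prrx1, a homeobox factor of connective tissue, was at 194 and 264 TPM in PAD4-DN and at 198 and 193 TPM in WT, above all 4 of the member transcription factors. Tcf4 and Tcf3, which encode partners of Twist proteins, were at 159 ± 16.6 and 44.7 ± 4.25 TPM (SD over 4 libraries). Snai2 was lower, at 5.05 and 5.01 TPM in PAD4-DN and at 3.08 and 4.13 TPM in WT. Among effectors S100a4 reached 3265 ± 542, the matrix protein gene Fn1 2012 ± 379 and the integrin gene Itgb1 563 ± 54.6 TPM. The smooth muscle actin gene Acta2 was at 7.12 and 7.16 TPM in PAD4-DN and at 5.17 and 5.16 TPM in WT. Ctnnb1, whose product β-catenin binds the tail of either cadherin, was at 349 ± 24.5 TPM, Ctnna1, whose product α-catenin attaches through β-catenin, was at 192 ± 8.60 TPM, and the cytoskeletal partner Vcl was at 126 ± 8.97 TPM.

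**Figure D2:**
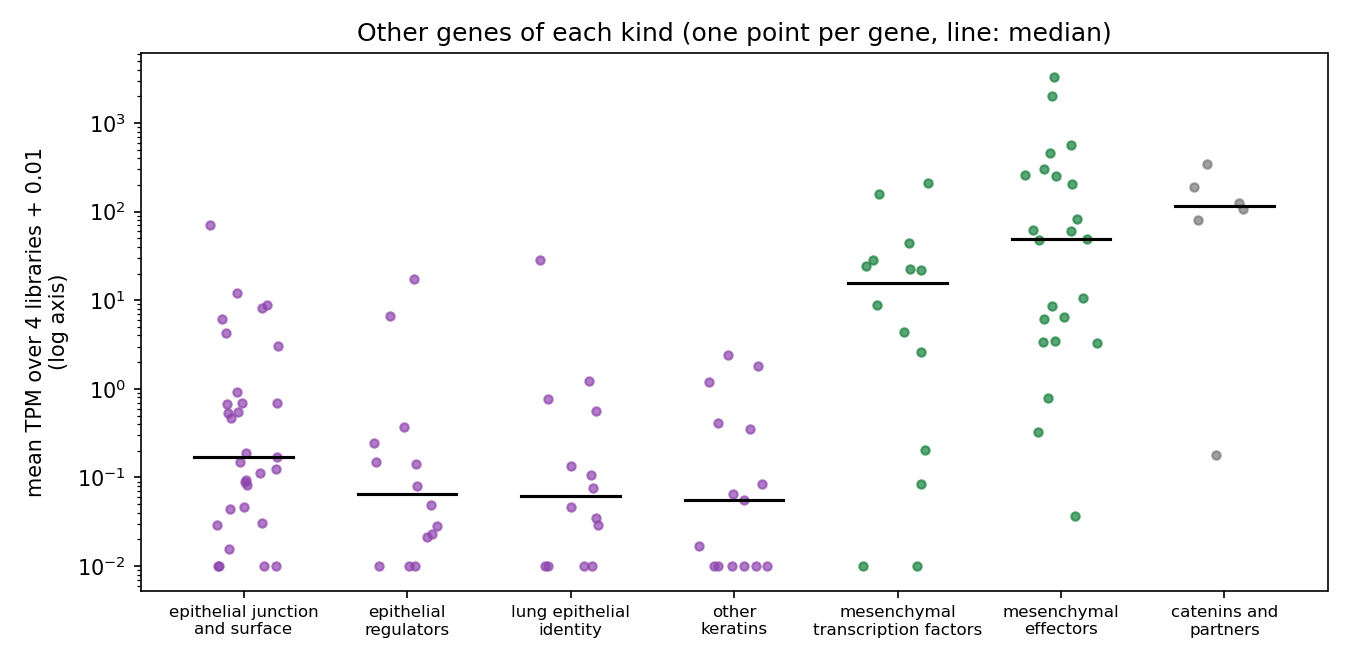
Mean TPM over 4 libraries plus 0.01, on a log axis, for each gene of 4 epithelial lists (purple), 2 mesenchymal lists (green) and catenins with their partners (grey); black lines are medians. The highest epithelial median is 0.158 TPM and the lower of the mesenchymal medians is 15.5 TPM.

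Mesenchymal genes are also expressed by stromal cells, so markers of other cell types were read in the same libraries. Fewer cells of a type and less RNA per cell cannot be told apart in bulk samples. The 12 fibroblast markers summed to 6904 and 4408 TPM in PAD4-DN and to 4361 and 4855 TPM in WT, and none was at 0 in all libraries. Most of this sum was Col3a1 and, at lower levels, Dcn, Lum and Dpt, which were high in every library. Chosen after their values were seen, Col1a1 and Col1a2, the chains of type I collagen, differed far more between libraries. Col1a1 was at 162 and 4.14 TPM in PAD4-DN and at 3.67 and 127 TPM in WT. Col1a2 was at 129 and 1.24 TPM in PAD4-DN and at 0.421 and 108 TPM in WT. One library of each genotype was high and the other low. Pi16, Mfap5 and, among listed mesenchymal effectors, Cdh11, Mmp2 and Lox had the same order of high and low libraries. The effectors Sparc, Axl, Tgfbi and Fbln5 also had both high libraries above both low ones in TPM, by smaller margins. Sparc was at 298 and 200 TPM in PAD4-DN and at 201 and 330 TPM in WT. The effectors Fn1, S100a4, Cd44, Itgb3, Nt5e and Msn had both of these libraries below the others. Of the other fibroblast markers, Col3a1, Pdgfra, Pdgfrb and Thy1 also had both high libraries above both low ones in TPM. Dcn, Lum, Fap and Dpt did not. Lum was at 219 and 430 TPM in PAD4-DN and at 251 and 273 TPM in WT. Fap was at 19.9 and 16.2 TPM in PAD4-DN and at 15.0 and 6.74 TPM in WT. Mmp2, a secreted metalloproteinase, was at 22.3 and 0.820 TPM in PAD4-DN and at 0 and 19.3 TPM in WT.

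Vim, Twist1 and Zeb1 had other orders of libraries. PAD4-DN replicate 2, with Col1a2 at 1.24 TPM, had 3155 TPM of Vim, the lowest of the 4 libraries, and 44.8 TPM of Twist1, the highest. WT replicate 1, with Col1a2 at 0.421 TPM, had 3598 TPM of Vim, the highest, and 35.4 TPM of Twist1, the lowest. Zeb1 was at 49.2 TPM in the first of these libraries and at 50.0 TPM in the second, between its values elsewhere. Zeb2 did separate the same libraries in CPM (scaled counts), in the opposite sense: PAD4-DN replicate 1 had 144 and WT replicate 2 had 116, against 165 in PAD4-DN replicate 2 and 154 in WT replicate 1. In TPM summed over all transcripts the Zeb2 libraries did not separate in this way. With protein-coding transcripts only they did, with PAD4-DN replicate 1 at 38.6 TPM and WT replicate 2 at 30.0 TPM. PAD4-DN replicate 2 was then at 40.7 TPM and WT replicate 1 at 39.9 TPM. The part of stromal cells in the levels of the mesenchymal members was not tested. Leukocyte markers were low, with the CD45 gene Ptprc at 1.88 and 0.324 TPM in PAD4-DN and at 0.713 and 0.551 TPM in WT. The 6 leukocyte markers summed to 40.3 and 3.63 TPM in PAD4-DN and to 15.2 and 18.5 TPM in WT. The 7 macrophage markers summed to 94.4 and 13.0 TPM in PAD4-DN and to 44.8 and 49.5 TPM in WT. Zeb2, which macrophages also express, was at 47.8 TPM in the library with the lowest of these sums. The part of macrophages in the Zeb2 level was not tested.

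Sums in PAD4-DN and WT were 61.9 and 12.7 against 43.2 and 7.54 TPM for neutrophil markers, 52.3 and 33.2 against 31.1 and 27.9 TPM for endothelium, and 2.27 and 1.89 against 2.43 and 2.76 TPM for pericytes and smooth muscle. Keratinocyte markers, which would tell of skin epithelium, summed to 1.52 and 3.12 TPM in PAD4-DN and to 1.30 and 1.42 TPM in WT, with Krt1, Krt14, Lor and Ivl at 0 counts in all libraries. The keratin 8 and 18 transcripts were thus measured beside almost no epidermal keratin. PAD4-DN replicate 1 had the highest leukocyte and macrophage sums and the highest Snai1, and their part in the Snai1 value was not tested.

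The comparison of hosts asked whether these identity genes differ in cancer cells when the host's neutrophils lack Padi4. None of the 8 members abundant enough to test (2 of 4 epithelial, 6 of 6 mesenchymal) passed an adjusted p of 0.05 by edgeR's quasi-likelihood test, and over all 13718 genes tested 0 passed (0.00%). At an unadjusted p under 0.05 the test gave 0 of the 8 members and 364 genes (2.65%; 1.23% higher and 1.42% lower). Limma-voom gave 0 genes at the adjusted threshold and 362 at the unadjusted one. DESeq2, and edgeR without the low-count filter, each gave 10 of 21921 genes at an adjusted p under 0.05 (0.0456%), none of them a member. The members' log2 fold changes, PAD4-DN minus WT, lay between −0.25 and 0.27, against a median of 0.01 over all genes tested. The epithelial pair had a median of −0.11 and the mesenchymal members one of 0.10.

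Values for this comparison are in CPM scaled by the TMM method, a unit not corrected for length. Krt18 was at 178 and 158 CPM in PAD4-DN and at 210 and 188 CPM in WT, below WT in both libraries, with a log2 fold change of −0.25 (SE 0.14, 95% interval −0.59 to 0.10, edgeR adjusted p = 0.988). Krt8 was at 217 and 162 CPM in PAD4-DN and at 195 and 175 CPM in WT, with a log2 fold change of 0.03 (SE 0.18, interval −0.42 to 0.49). The keratin partners thus differed in how their libraries were ordered, and the TPM ratio of Krt18 to Krt8 was 1.17 and 1.40 in PAD4-DN and 1.54 and 1.54 in WT. On the log2 scale this ratio was 0.36 ± 0.18 in PAD4-DN and 0.62 ± 0.004 in WT (SD, n = 2 each). An exact two-sided permutation test gave p = 0.333, the smallest that 2 against 2 libraries allow. Any such groups without overlap give this value, so the test cannot weigh the difference.

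Zeb1 was at 121 and 117 CPM in PAD4-DN and at 112 and 110 CPM in WT, above WT in both libraries, with a log2 fold change of 0.10 (SE 0.11, interval −0.17 to 0.37, edgeR adjusted p = 0.988). In CPM, Krt18 and Zeb1 were the only tested members whose libraries did not overlap between hosts, 1 lower and 1 higher. Of all genes tested, 32.8% did not overlap. Which members separated depended on the unit. In TPM summed over all transcripts Zeb1 overlapped, at 52.7 and 49.2 in PAD4-DN and 50.0 and 37.1 in WT. Twist1 then did not, at 41.3 and 44.8 TPM in PAD4-DN and 35.4 and 41.0 TPM in WT. Krt18 was below WT in both units. Zeb2 had a log2 fold change of 0.19 (SE 0.18, interval −0.24 to 0.63), at 144 and 165 CPM in PAD4-DN and 154 and 116 CPM in WT. Twist1 was at 40.7 and 44.6 CPM in PAD4-DN and at 37.9 and 41.8 CPM in WT, a log2 fold change of 0.10 (SE 0.13, interval −0.23 to 0.43).

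Snai1 had the widest interval, with 26.1 and 14.3 CPM in PAD4-DN and 18.0 and 15.5 CPM in WT and a log2 fold change of 0.27 (SE 0.30, interval −0.49 to 1.02). It was −0.23 without PAD4-DN replicate 1, the library that set its sign. Cdh2 was at 26.3 and 34.8 CPM in PAD4-DN and at 32.7 and 36.3 CPM in WT, a log2 fold change of −0.18 (SE 0.18, interval −0.62 to 0.27), and was at 0.01 without the same library. Vim had a log2 fold change of −0.09 (SE 0.14, interval −0.44 to 0.25), and 0.01 without WT replicate 1. Krt8 was at −0.19 without PAD4-DN replicate 1 and at −0.04 without WT replicate 2. For every tested member the 95% interval included 0, and the interval of Snai1 alone reached a doubling.

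**Figure D3:**
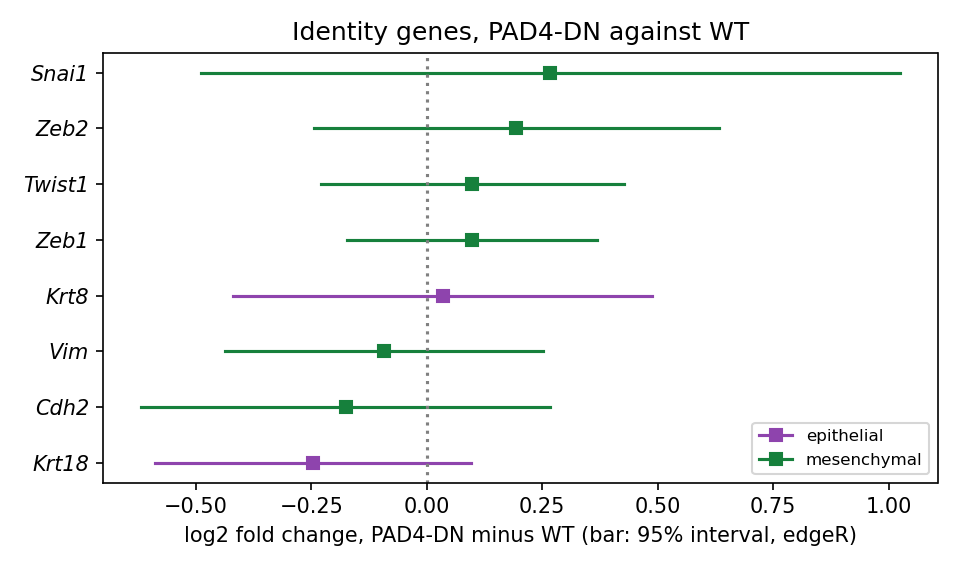
Log2 fold change, PAD4-DN minus WT, of the 8 testable identity genes by edgeR (squares) with 95% intervals (bars), epithelial genes in purple and mesenchymal genes in green. The estimates run from −0.25 for Krt18 to 0.27 for Snai1 and each bar crosses 0.

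In the same fit 0 genes of the other epithelial, mesenchymal and catenin lists passed the adjusted threshold in either direction. The median log2 fold change was −0.28 over 13 tested junction and surface genes, 0.16 over 10 mesenchymal transcription factors, 0.12 over 21 mesenchymal effectors and 0.00 over 5 catenins and partners. It was 0.23 over 3 epithelial regulators, 0.36 over 3 lung identity genes and 0.29 over 4 other keratins. Among junction and surface genes, the PAD4-DN libraries both lay below the WT range in CPM for 5 and above it for 2. Of all genes, 17.4% were below and 15.4% above. The 5 include Muc1, with only 12 and 16 counts in PAD4-DN and 28 and 19 in WT. Mesenchymal transcription factors had 4 above and 1 below, mesenchymal effectors 2 and 0, and other keratins 2 and 1. The smallest p of the junction and surface list belonged to Itgb4, an integrin subunit of hemidesmosomes, at 8.73 and 8.80 CPM in PAD4-DN and 15.4 and 12.9 CPM in WT. Its log2 fold change was −0.69 (SE 0.19, edgeR unadjusted p = 0.0131 and adjusted p = 0.988). Snai2 and Acta2, with the smallest p of the mesenchymal factors and effectors, had log2 fold changes of 0.41 (SE 0.27) and 0.51 (SE 0.25).

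Medians were 0.21 over 12 fibroblast markers, −0.05 over 7 endothelial, −0.39 over 3 pericyte and smooth muscle, 0.33 over 6 leukocyte, −0.09 over 7 macrophage and 0.87 over 5 neutrophil markers, and the 1 tested keratinocyte marker, Krt10, was at 0.05. No gene of these lists passed the adjusted threshold. Dpt, a dermal matrix gene, had the smallest p among the fibroblast markers, at 255 and 180 CPM in PAD4-DN and 135 and 154 CPM in WT (edgeR unadjusted p = 0.0277, adjusted p = 0.988).

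Genes whose centred log2 CPM lay nearest to a member over the 4 libraries were taken for the epithelial and the mesenchymal member with the widest range. For Krt8 these were Lrpap1, Tm2d2 and Lamc1, at root mean square distances of 0.012, 0.013 and 0.016, and for Snai1 they were Cox19, Thg1l and Cobll1, at 0.028, 0.031 and 0.035. All 6 were highest in PAD4-DN replicate 1 and lowest in PAD4-DN replicate 2, as were Krt8 and Snai1. This shared order follows from choosing the 6 by nearness. With 4 libraries such near matches describe these libraries only.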

How the data were processed

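Poly-A RNA was sequenced from 2 PAD4-DN and 2 WT libraries, made from 100 ng of total RNA with 13 PCR cycles and read as 75-cycle single ends, per the labels' protocols. The authors deposited kallisto estimated counts and TPM per transcript for GRCm39, per the submitters' processing notes; for kallisto's version, strand setting and annotation release: not given in the sources used here. Estimated counts deposited by the authors are not normalized, and the deposited TPM sum to 1000000 per library. Libraries held 20036322 to 25327974 counts. No molecular identifiers marked PCR copies, so reads are not independent molecules and intervals cover counting error only.

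Of 117486 transcripts, 116408 matched a gene of GENCODE M21 by identifier without version. That annotation is on an earlier build and served for names only. Counts were summed per gene and rounded to whole numbers; TPM were summed. edgeR 4.0.16 (R 4.3.3) was run with TMM, filterByExpr (13718 genes), quasi-likelihood testing and a Benjamini-Hochberg adjusted threshold of 0.05, without a replicate block, after being tested on simulated data. Alternatives used DESeq2 1.42.0 and limma 3.58.1, other scaling, filters, units and left-out libraries.

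The members and lists were chosen with earlier results of these data known. Named genes are all members, the 3 of each list with the highest mean TPM and the 1 with the smallest p, and 3 nearest profiles for 2 members, taken among protein-coding genes of at least 5 mean CPM. Not every gene the rule names for other cell types is printed. Outside the rule, listed genes at 0 counts, Nkx2-1, Tjp3, Dsp, Muc1, Col1a1, Col1a2, Pi16, Mfap5, Pdgfra, Pdgfrb, Thy1, Fap, Cdh11, Mmp2 and Lox were named after their values were seen. So were Sparc, Axl, Tgfbi, Fbln5, Cd44, Itgb3, Nt5e and Msn. The TdTomato transcript was not analysed here.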

Additional observations from a re-analysis of the deposited data

How the results depend on the processing

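The count of genes past an adjusted p of 0.05 was 0 by edgeR with the low-count filter, 10 by edgeR without it and 10 by DESeq2, and ran from 0 to 2 when 1 library was left out. The 2, found without WT replicate 2, were Gm10800 and Rpl15-ps3, named after their values were seen. No member and no gene of the other lists was among the calls of any alternative. Each of the 8 tested members kept its sign in the 7 alternatives that keep all libraries. When 1 library was left out the log2 fold change ran from −0.19 to 0.23 for Krt8, −0.39 to 0.011 for Cdh2, −0.18 to 0.0080 for Vim and −0.23 to 0.64 for Snai1, crossing 0, and did not cross 0 for Krt18, Zeb1, Zeb2 and Twist1. The cause was not tested. With the replicate number as a block 0 genes passed (309 at an unadjusted p under 0.05). Deviations of same-numbered libraries correlated at −0.34 across genes, and the crossed pairing, added after the data were seen, also gave 0 genes (412). The smallest edgeR adjusted p was 0.0505 with the crossed pairing, just above the threshold, and 0.988 in the main fit. The mesenchymal minus epithelial difference was 2.19 with log2(TPM + 1), 3.33 with log2(TPM + 0.1), 2.89 with log2(CPM + 1) and 1.91 with protein-coding transcripts only, always positive, and ran from 2.16 to 2.22 when 1 library was left out. The last setting gave 3 neighbouring pairs with overlapping ranges, against 2. With 2 libraries a group, log2 fold changes had a median standard error of 0.20, and depth set the limit for Cdh1 and Epcam.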
